A study of Homo sapiens with 6 samples.

Results

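The subunits of mitochondrial respiratory chain complexes I to V were examined in MM.1S, an established human multiple myeloma cell line, on arrays of cells exposed to enzastaurin and of untreated cells. Members were genes whose probe sets were paired with exactly 1 gene symbol in the platform annotation, where that symbol had a set beginning. The beginnings were NDUFA, NDUFB, NDUFC, NDUFS, NDUFV, SDHA to SDHD, UQCR, CYC1, COX4 to COX8, ATP5F1, ATP5M and ATP5P. Older ATP5 symbols of the same subunits were also taken. The rule found 109 of the 22277 probe sets and 75 of the 11963 genes so paired. Of the 75 genes, 66 encode subunits, 28 of complex I, 3 of complex II, 7 of complex III, 13 of complex IV and 15 of complex V. The other 9 were 7 assembly factors (NDUFAF1, NDUFAF3, NDUFAF4, NDUFAF5, NDUFAF7, SDHAF1 and SDHAF3), the antisense transcript NDUFB2-AS1 and the pseudogene ATP5MC2P1.

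The respiratory chain sits in the inner mitochondrial membrane. Complex I takes electrons from NADH and complex II takes them from succinate, coenzyme Q carries them to complex III, and cytochrome c carries them on to complex IV, which passes them to oxygen. Complexes I, III and IV pump protons across the membrane, and complex V, the ATP synthase, uses the resulting gradient to make ATP. All subunits described here are encoded in the nucleus, and the factors NRF1, GABPA (an ETS family protein) and YY1 are known to bind the promoters of many of them. Myeloma cells are malignant plasma cells that secrete large amounts of immunoglobulin.

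Enzastaurin is an inhibitor of protein kinase C beta, and the labels give no dose. Untreated cells were taken at 3, 6 and 12 h, and enzastaurin-treated cells were taken at the same 3 times. Each treatment and time had 1 array, 6 in all, so a single time has no replicate and the 3 times served as the replicates of the drug effect. All 8 plasma cell markers listed were above the intensity filter, with summed intensities of 17824 to 22731 on untreated arrays and 16661 to 20016 on enzastaurin arrays. None of 8 T and NK cell markers, 8 monocyte markers or 3 epithelial markers was above it, with sums of 209 to 250, 129 to 189 and 57.9 to 73.5 over the 6 arrays. Of 3 erythroid markers 2 were measured and 1 was above it, with sums of 173 to 460. Values are MAS5 intensities, or log2 ratios of enzastaurin over untreated cells at a matched time. In a bulk measurement of this kind, fewer cells expressing a gene and less RNA per cell cannot be told apart.

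The 6 arrays had median intensities of 62.2 to 67.6. Ribosomal RNA probe sets differed far more, with mean log2 values of 11.98 and 9.29 on the untreated arrays at 6 and 12 h and 9.99 on the enzastaurin array at 3 h, against 3.39 on the untreated array at 3 h and 3.79 and 3.02 on the enzastaurin arrays at 6 and 12 h. For ACTB, the 3' over the 5' signal on the log2 scale, a sign of RNA integrity, was 1.16 to 1.89 on untreated arrays, 0.57 and 0.86 on the enzastaurin arrays at 6 and 12 h, and highest on the enzastaurin array at 3 h. The untreated array at 3 h therefore differed from the later untreated arrays in ribosomal RNA intensity, and it is the reference for every 3 h ratio.

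Intensity filtering kept the upper 50 percent of probe sets, and 64 of the 66 subunits were tested among 6838 genes. COX6A2 and COX7A1, the heart and muscle forms of their subunits, were below the filter, at intensities of 25.1 to 51.7 and 2.09 to 15.98. Of the other 9 genes matched by the rule, 5 assembly factors were tested, and NDUFAF5, NDUFAF7, NDUFB2-AS1 and ATP5MC2P1 were below the filter.

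Over all 3 times no subunit passed the test of enzastaurin against untreated cells. In limma with the time point as a block, 0 of 64 subunits passed an adjusted p of 0.05, against 0.0585 percent of all tested genes. None of the 64 had an unadjusted p under 0.05, against 5.41 percent of all tested genes. The smallest adjusted p of a subunit was 0.980, and the largest mean log2 ratio in size was that of NDUFA9, at -0.84 (SE 0.47, n = 3 time-matched ratios).

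The median ratio of the subunits was above 0 at 3 h and below 0 at 12 h. At 3 h 51 of the 64 (79.7 percent) were above 0, with a median log2 ratio of 0.16, against 46.4 percent and a median of -0.04 over all tested genes. At 6 h the median was -0.05 with 57.8 percent below 0, against 0.06 and 45.6 percent over all tested genes. At 12 h 55 subunits (85.9 percent) were below 0, with a median of -0.35, against 61.1 percent and -0.18 over all tested genes. In 45 subunits (70.3 percent) the ratio was above 0 at 3 h and below 0 at 12 h, as in 31.3 percent of all tested genes. With a ratio below 0 also required at 6 h, there were 25 subunits (39.1 percent), against 19.6 percent of all tested genes. The opposite of this stricter course is below 0 at 3 h and above 0 at 6 and 12 h. It was found in 0 subunits and in 17.9 percent of all tested genes. On the 3 h and 12 h ratios alone the opposite did occur, as in COX7C (-0.07 and 0.09). Among the 1455 tested genes in the upper 10 percent of intensity, a comparison added after seeing the data, the medians were -0.03, 0.04 and -0.24 at 3, 6 and 12 h, and 34.3 percent were above 0 at 3 h and below 0 at 12 h. In untreated cells alone, the subunits had a median log2 difference of 0.17 between 12 and 3 h, against 0.03 over all tested genes. Between 6 and 3 h the median difference was -0.07 in the subunits and -0.07 over all tested genes. These medians describe 3 pairs of arrays and were not tested.

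**Figure D1:**
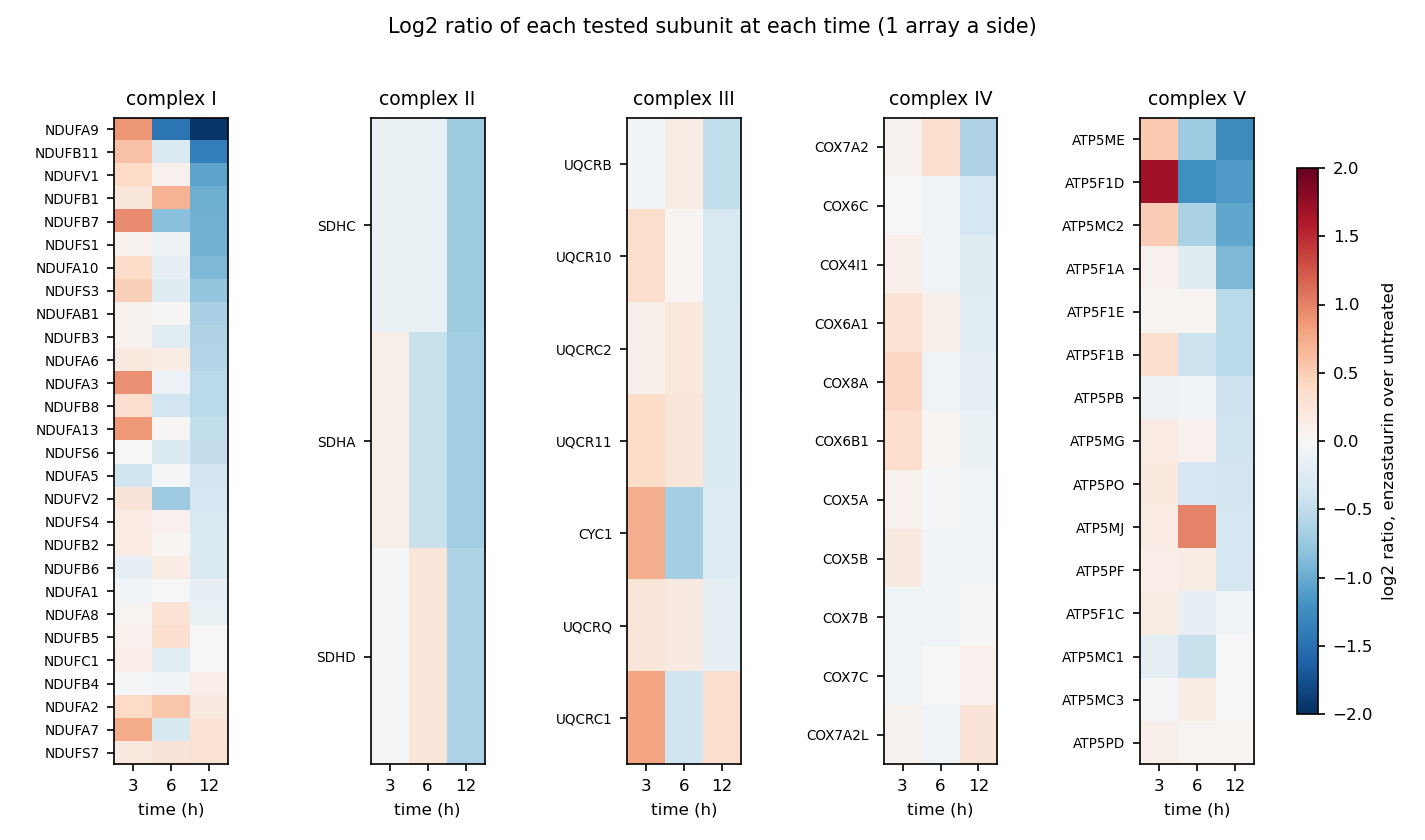
Log2 ratio of enzastaurin over untreated cells for each of the 64 tested subunits (rows, ordered within each complex by the 12 h ratio) at 3, 6 and 12 h (columns), with 1 array on each side; red is higher and blue is lower with enzastaurin. Most rows are red or pale at 3 h and blue at 12 h, NDUFA9 and ATP5F1D have the deepest colours, and complex IV is pale throughout.

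Most of these ratios were small. At 3 h 1 subunit, ATP5F1D, was at least 2-fold higher and 0 were at least 2-fold lower, against 1.89 and 2.65 percent of all tested genes. At 6 h 0 were at least 2-fold higher, against 5.6 percent, and 2 were at least 2-fold lower (NDUFA9 and ATP5F1D), against 3.22 percent. At 12 h 0 were at least 2-fold higher, against 3.88 percent. At 12 h 6 subunits were at least 2-fold lower (NDUFA9, NDUFB11, ATP5ME, ATP5F1D, NDUFV1 and ATP5MC2), a share near the 10.4 percent of all tested genes. In 34 of the 64 (53.1 percent) the log2 ratio stayed within 0.5 of 0 at all 3 times, against 31.0 percent of all tested genes and 44.5 percent of those in the upper 10 percent of intensity. The enzastaurin and untreated arrays did not overlap in 1 subunit that was higher with the drug, NDUFA2, and in 1 that was lower, NDUFA1, against 3.47 and 7.18 percent of all tested genes.

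A slope of the log2 ratio per doubling of hours asked whether the effect of enzastaurin differed along time. It was below 0 in 56 of 64 subunits, against 57.0 percent of all tested genes, with a median of -0.25 against -0.07. In limma 2 subunits passed an adjusted p of 0.05, ATP5F1D and NDUFA9, both with a downward slope, against 1.43 percent of all tested genes in either direction and 0.921 percent downward. At an unadjusted p under 0.05 there were 13 of 64 subunits, against 11.0 percent of all tested genes. The slope fit has 1 residual degree of freedom and a prior estimated as infinite, so its errors come from the variance shared by genes of like intensity. Neither gene passed when the medians of the kept genes were made equal (adjusted p = 0.380 for ATP5F1D and 0.336 for NDUFA9) or after quantile normalization (0.256 and 0.231).

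ATP5F1D encodes the delta subunit of the ATP synthase, part of the central stalk that turns in the catalytic head. Its intensity was 289, 1245 and 1008 in untreated cells at 3, 6 and 12 h and 926, 535 and 461 with enzastaurin. The untreated array at 3 h was the lowest of the 6 and the untreated arrays at 6 and 12 h were the highest, so that the groups overlapped. The log2 ratios were 1.68, -1.22 and -1.13, a 3.21-fold higher level at 3 h and 2.33-fold and 2.19-fold lower levels at 6 and 12 h. The slope was -1.41 (SE 0.35, adjusted p = 0.0102), while the mean ratio was -0.22 (SE 0.48, adjusted p = 0.999). A second ATP5F1D probe set, below the filter, was at 7.10, 115 and 78.0 without the drug and at 76.8, 12.7 and 14.5 with it, with ratios of the same sign at each time. The level in untreated cells alone spanned 4.32-fold.

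NDUFA9 encodes a subunit of the part of complex I that joins the matrix arm to the membrane arm. Its intensity was 321, 657 and 746 without the drug and 593, 238 and 195 with it. Enzastaurin cells had the higher level at 3 h and the lower level at 6 and 12 h, and the 2 later enzastaurin arrays were the lowest of the 6. The log2 ratios were 0.89, -1.47 and -1.94, the last a 3.83-fold lower level, and the slope was -1.41 (SE 0.37, adjusted p = 0.0175). In untreated cells NDUFA9 spanned 2.33-fold over time.

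Both genes were ordered as the ribosomal RNA intensity of the arrays was. The 3 arrays with the higher ribosomal RNA intensity (untreated at 6 and 12 h, enzastaurin at 3 h) had the 3 highest levels of ATP5F1D and of NDUFA9. The same order, examined after seeing the data, was found in 16 of 64 subunits, 25 percent, against 11.5 percent of all tested genes. This order requires a ratio above 0 at 3 h and below 0 at 6 and 12 h, a course of 25 subunits. Its share is therefore not separate from that of the course, which 19.6 percent of all tested genes took. The reverse order was found in 0 subunits, against 10.4 percent of all tested genes. It requires the opposite course, which 0 subunits took, so this 0 was fixed by that course. The 16 comprised NDUFA3, NDUFA9, NDUFB7, NDUFB8, NDUFB11, NDUFS3 and NDUFV2 of complex I, SDHA, COX5B and COX8A, and ATP5F1A, ATP5F1B, ATP5F1C, ATP5F1D, ATP5MC2 and ATP5PO of complex V. The part of the ribosomal RNA intensity in these results was not tested for the slope, since a fit with it left no residual degree of freedom. With it as a covariate in the treatment fit, 0 of 64 subunits passed in limma and the mean ratio was -0.37 for NDUFA9 and 0.31 for ATP5F1D.

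**Figure D2:**
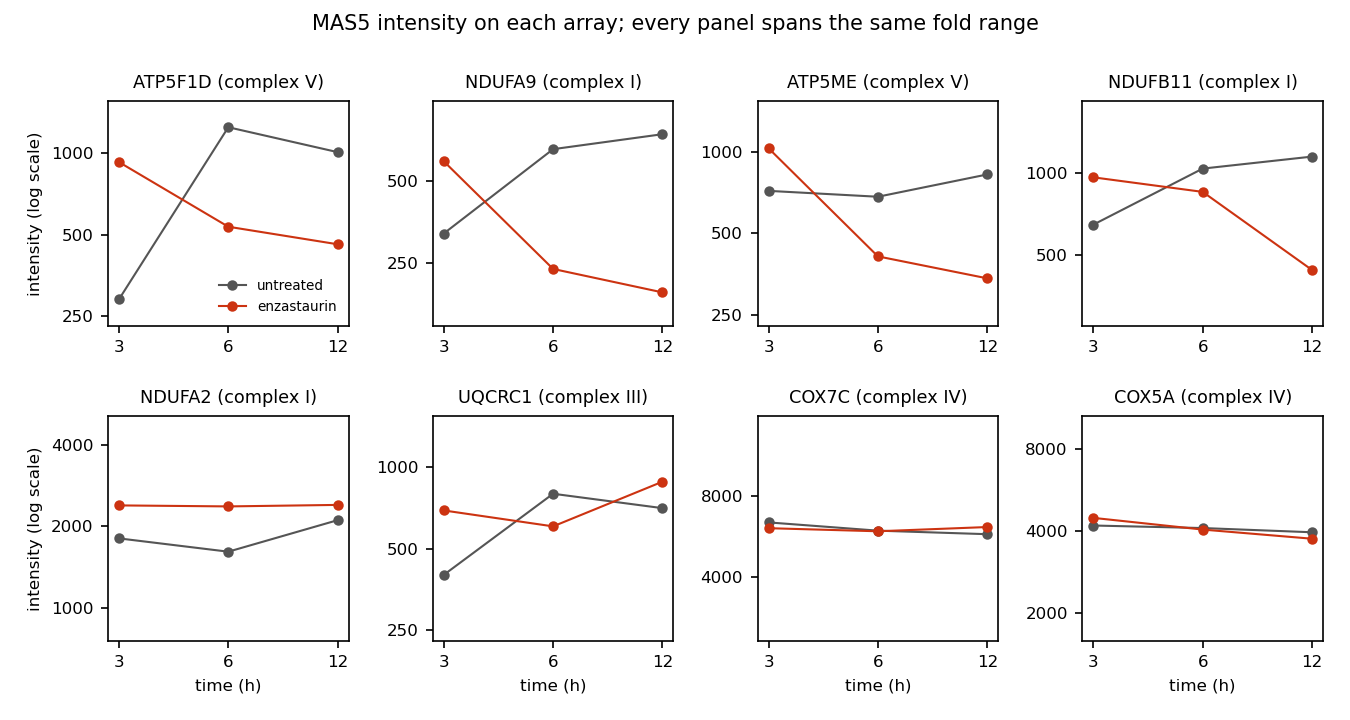
MAS5 intensity (log axis, each panel spanning the same fold range) against time for 8 subunits, with 1 array per point, untreated in grey and enzastaurin in red. The lines of ATP5F1D, NDUFA9, ATP5ME and NDUFB11 cross between 3 and 6 h, NDUFA2 lies above its untreated line at all 3 times, and COX7C and COX5A nearly coincide between treatments.

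When the 6 h and 12 h pairs were fitted without the 3 h pair, 2 subunits passed in limma, both lower with enzastaurin, against 2.08 percent of all tested genes called lower. NDUFA9 had a mean log2 ratio of -1.70 (SE 0.33, n = 2, adjusted p = 0.00526) and ATP5F1D had -1.17 (SE 0.29, n = 2, adjusted p = 0.0301). This fit has 1 residual degree of freedom, joined to a prior of 16.86 degrees of freedom. In both pairs the untreated array had the higher ribosomal RNA intensity.

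The complexes differed in the spread of their ratios. At 12 h the median log2 ratio was -0.48 in complex I (24 of 28 subunits below 0), -0.70 in complex II (3 of 3), -0.28 in complex III (6 of 7), -0.14 in complex IV (8 of 11) and -0.39 in complex V (14 of 15). At 3 h the medians were 0.20, -0.02, 0.35, 0.09 and 0.15 in the same order, and at 6 h they were -0.04, -0.14, 0.15, -0.05 and -0.16. Judged by the brightest probe set of each gene, 10 of 11 tested subunits of complex IV stayed within 0.5 of 0 at every time. The counts were 5 of 7 in complex III, 8 of 15 in complex V, 11 of 28 in complex I and 0 of 3 in complex II. These differences between complexes were not tested, because subunits are not replicates of a complex. The tested subunits also differed in brightness, with median intensities of 1452, 1397, 1905, 3324 and 3367 in complexes I to V. Of all tested genes 31.0 percent stayed within 0.5 of 0, against 44.5 percent of those in the upper 10 percent of intensity. The part of intensity in the differences between complexes was not tested.

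**Figure D3:**
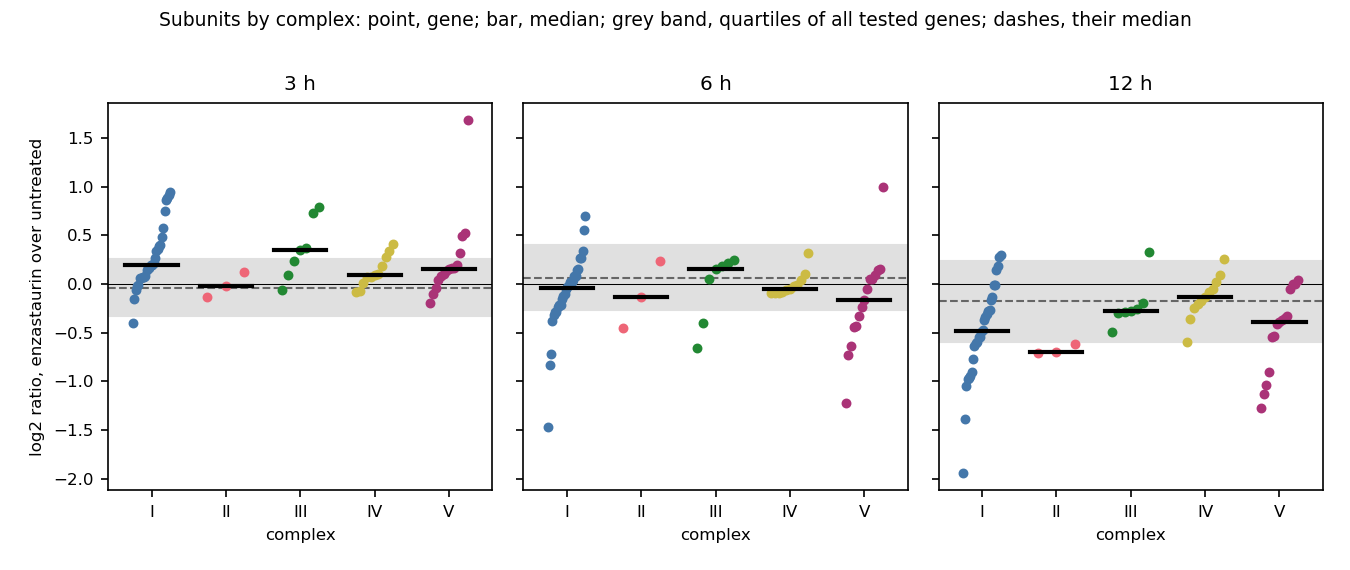
Log2 ratio of enzastaurin over untreated cells for each tested subunit (points), by complex and time, with the median of each complex (bar), the quartiles of all 6838 tested genes (grey band) and their median (dashed line). At 12 h the bars of complexes I, II, III and V lie below the dashed line and that of complex IV lies slightly above it.

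In complex I the larger ratios were found in several parts of the enzyme. NDUFV1, which carries the flavin that accepts electrons from NADH, was at 1477, 1700 and 1852 without the drug and at 1940, 1795 and 895 with it. Its ratios were 0.39, 0.08 and -1.05, and the enzastaurin array at 12 h was the lowest of the 6. NDUFS1, an iron-sulphur subunit of the same electron input module, was at 543, 516 and 699 without the drug and at 568, 482 and 362 with it, and again the 12 h enzastaurin array was lowest. NDUFB11, an accessory subunit of the membrane arm, was at 646, 1040 and 1151 without the drug and at 965, 853 and 439 with it. Its ratios of 0.58, -0.29 and -1.39 gave a slope of -0.98 (SE 0.34) that did not pass (adjusted p = 0.117). NDUFB7, another accessory subunit of that arm, was at 243, 309 and 404 without the drug and at 468, 174 and 206 with it, the enzastaurin array highest of the 6 at 3 h and lowest at 6 h. A second NDUFB7 probe set, below the filter, had ratios of 0.34, 0.55 and 0.66, against 0.95, -0.83 and -0.97 in the brighter.

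Other accessory subunits of complex I took other courses. NDUFB1 had ratios of 0.22, 0.70 and -0.98, with a low untreated array at 6 h, at 1220 against 1936 and 2361 at 3 and 12 h. NDUFA3 had ratios of 0.92, -0.12 and -0.54 and NDUFA13 had 0.87, 0.02 and -0.50. In both of these the untreated array at 3 h was the lowest of the 6. NDUFA7 had 0.74, -0.32 and 0.28, and NDUFA5 had -0.40, -0.03 and -0.37. NDUFB6 had -0.16, 0.14 and -0.27, NDUFB8 had 0.34, -0.38 and -0.54, and NDUFA6 had 0.20, 0.15 and -0.59. NDUFS7, a core subunit that holds the last iron-sulphur cluster before coenzyme Q, was above 0 at all 3 times, at 0.20, 0.26 and 0.29.

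NDUFA2, an accessory subunit of the electron input module, was higher with enzastaurin at every time. Its intensity was 1806, 1613 and 2108 without the drug and 2389, 2369 and 2399 with it. The enzastaurin values lay close together and all above the highest untreated value. The mean log2 ratio of 0.38 (SE 0.20, n = 3) did not pass in limma (adjusted p = 0.980). NDUFA1, the 1 subunit with all enzastaurin values below all untreated values, was at 3231, 3223 and 3302 without the drug and at 3095, 3190 and 2954 with it, a mean ratio of -0.08 (SE 0.17, adjusted p = 0.999). By module, the 12 h medians were -0.41 for 6 tested subunits of the electron input module, -0.05 for 4 of the module that reduces coenzyme Q and -0.54 for 9 of the distal membrane arm. The remainder of the 28 tested subunits were assigned to no module. NDUFA9, with the lowest 12 h ratio of complex I (-1.94), was among these, so the medians depend on the assignment.

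Complex II, succinate dehydrogenase, is the smallest of the complexes and also works in the tricarboxylic acid cycle. SDHA, the flavoprotein that oxidises succinate, was at 2251, 2472 and 2513 without the drug and at 2453, 1807 and 1548 with it. The later 2 enzastaurin arrays were the lowest of the 6, and the ratios were 0.12, -0.45 and -0.70. SDHD, a membrane anchor, had ratios of -0.02, 0.24 and -0.62. SDHC, the other membrane anchor, was read by 4 kept probe sets that differed more than those of any other subunit, with mean ratios 0.88 apart on the log2 scale. None of the 3 subunits passed the treatment fit or the slope fit in limma.

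The brightest SDHC probe set, which stands for the gene here, was at 1105, 927 and 1169 without the drug and at 1004, 843 and 715 with it, ratios of -0.14, -0.14 and -0.71. The others had larger ratios at 6 and 12 h. Probe set 210131_x_at was at 744, 635 and 740 without the drug and at 628, 210 and 213 with it. Probe set 202004_x_at was at 587, 574 and 593 without the drug and at 554, 215 and 154 with it. Probe set 216591_s_at was at 281, 248 and 252 without the drug and at 242, 83.3 and 85.9 with it. In all 3 the untreated arrays lay close together, the 3 h enzastaurin array lay near them and the later 2 lay well below. In Affymetrix naming, x_at marks a probe set with probes that also match other transcripts and s_at one that matches several transcripts. Which transcripts these SDHC probe sets read was therefore not settled here. The probe sets that stand for SDHA, ATP5ME, ATP5MG, ATP5F1C, COX4I1 and COX7C are also x_at, and the same limit holds for them.

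With every probe set in the treatment fit, the 3 less bright SDHC probe sets had unadjusted p-values of 0.00461, 0.00881 and 0.00729. They did not pass in limma (adjusted p = 0.407, 0.544 and 0.507). In a fit of every probe set to the 6 h and 12 h pairs, added after seeing the data, they were 3.24-fold, 3.21-fold and 2.96-fold lower with enzastaurin (n = 2, adjusted p = 0.00820, 0.0105 and 0.0192), against 1.77 percent of all probe sets called lower. In that fit the brightest probe set had a ratio of -0.42 (SE 0.29, adjusted p = 0.532). Besides these 3, the probe sets of NDUFA9 and ATP5F1D were the subunit probe sets that passed. At 3 h the enzastaurin array had the higher ribosomal RNA intensity and the lower intensity of these 3 SDHC probe sets, and at 6 and 12 h the untreated array was higher in both.

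**Figure D4:**
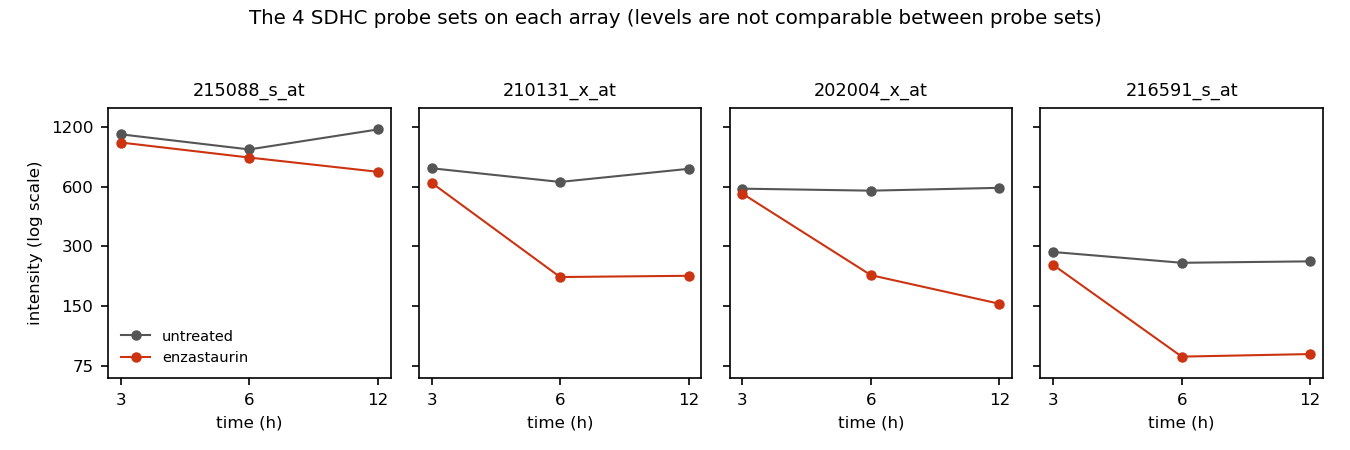
MAS5 intensity (log axis) of the 4 SDHC probe sets against time, with 1 array per point, untreated in grey and enzastaurin in red. In 3 probe sets the enzastaurin arrays at 6 and 12 h lie 2.96-fold to 3.24-fold under the untreated arrays on average, while in the brightest, 215088_s_at, the distance is smaller at both times.

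Complex III passes electrons from coenzyme Q to cytochrome c. CYC1, its cytochrome c1 subunit, was at 915, 1784 and 1831 without the drug and at 1522, 1127 and 1527 with it, and UQCRC1, a core subunit, had 401, 798 and 706 and 693, 605 and 884. In both the untreated array at 3 h was the lowest of the 6, and the ratios were 0.73, -0.66 and -0.26 for CYC1 and 0.79, -0.40 and 0.32 for UQCRC1. UQCRC2, the other core subunit, had 0.09, 0.21 and -0.29. UQCRB, which helps to form the coenzyme Q site, had -0.06, 0.15 and -0.50. The small subunits UQCR10, UQCR11 and UQCRQ had ratios from 0.24 to 0.37 at 3 h and from -0.30 to -0.19 at 12 h, and no subunit of complex III passed in limma.

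Complex IV, cytochrome c oxidase, had the narrowest ratios when the brightest probe set stood for each gene. COX7C was at 6371, 5940 and 5764 without the drug and at 6066, 5909 and 6125 with it, so that the treated and untreated arrays overlapped throughout. Its ratios were -0.07, -0.01 and 0.09, and the mean was 0.00 (SE 0.13). COX5A had 0.09, -0.02 and -0.08, and COX4I1, the largest nuclear-encoded subunit, had 0.10, -0.09 and -0.25. A less bright kept COX4I1 probe set had 0.18, 0.31 and -1.14, past 2-fold lower at 12 h. COX6A1, the form of subunit VIa found in most tissues, had 0.27, 0.10 and -0.21, COX6B1 had 0.34, 0.05 and -0.14, and COX6C had 0.01, -0.09 and -0.36. By the brightest probe sets COX7A2 was the 1 subunit outside 0.5. It was at 3616, 2928 and 3727 without the drug and 3786, 3660 and 2468 with it, ratios of 0.07, 0.32 and -0.59. COX7A2L, a related protein that takes part in supercomplexes, had 0.07, -0.07 and 0.26. COXFA4, formerly named NDUFA4 and now counted with complex IV, was not matched by the rule and had ratios of -0.04, -0.08 and 0.27.

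In complex V, ATP5ME and ATP5MC2 had ratios above 0 at 3 h and below 0 at 6 and 12 h, as NDUFB11 did. ATP5ME, a subunit of the membrane part, was at 718, 683 and 825 without the drug and at 1031, 411 and 341 with it, with the enzastaurin arrays the highest of the 6 at 3 h and the lowest at 6 and 12 h. Its ratios were 0.52, -0.73 and -1.27, and the slope of -0.90 (SE 0.35) did not pass (adjusted p = 0.221). ATP5F1A, the alpha subunit of the catalytic head, was at 4644, 4697 and 5235 without the drug and at 4917, 3991 and 2802 with it, and ATP5F1B, the beta subunit, had 3135, 4615 and 4363 and 3904, 3432 and 3010. The ratios were 0.08, -0.23 and -0.90 for ATP5F1A and 0.32, -0.43 and -0.54 for ATP5F1B. ATP5MJ, a small membrane subunit, had a ratio of 0.998 at 6 h, where its untreated array was at 764 against 1732 and 1881 at the other times, and a second probe set had -0.33 there.

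ATP5MC1, ATP5MC2 and ATP5MC3 encode the same mature c subunit, which forms the rotor ring, from 3 different genes. ATP5MC2 was at 1273, 1599 and 1701 without the drug and at 1786, 1031 and 830 with it, with ratios of 0.49, -0.63 and -1.03. ATP5MC1 had ratios of -0.20, -0.45 and -0.00, and ATP5MC3 had -0.04, 0.16 and -0.00. At 12 h the 3 genes thus had 1 ratio past 2-fold and a pair near 0, and the difference between them was not tested. Sequences of the gene copies are alike in the coding part, and which copies each probe set reads was not settled here.

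Of the 16 subunits with over 1 kept probe set, 8 had probe sets whose mean ratios differed in sign. These were ATP5F1C, ATP5MC3, ATP5MJ, COX5B, COX7C, NDUFA6, NDUFB8 and UQCRB. Most of these mean ratios lay near 0, and the largest in size was the 0.27 of ATP5MJ. At 12 h COX5B ranged from -0.05 to -1.31 over 4 probe sets, and COX7C from -0.48 to 0.09 over 3. Further probe sets below the filter, of subunits with a kept one, had these ratios at 3, 6 and 12 h. That of ATP5MC2 had 1.09, -0.01 and -0.08, and that of COX4I1 had 0.73, 0.33 and 0.22. That of SDHD had -0.64, -0.63 and 0.18, and that of NDUFA5 had -0.79, -0.29 and -0.55.

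Promoters were examined for the letters of 3 known regulators, because most members had ratios above 0 at 3 h and below 0 at 12 h. RefSeq promoter windows (GRCh38.p14, 250 bases before to 50 after the start) were matched for 57 of the 66 subunits. The NRF1 core, CGCANGCG or CGCNTGCG on the other strand, was found in 20 of 57 windows (35.1 percent), against 20.5 percent of the 5702 windows of tested genes and 14.3 percent of the 15843 windows of protein-coding genes. The ETS letters, CCGGAAG on either strand, were found in 17 (29.8 percent), against 20.8 and 14.2 percent. The YY1 letters, AAGATGGC on either strand, were found in 10 (17.5 percent), against 6.58 and 3.91 percent. The NRF1 core was found in 8 of 27 windows of complex I, 2 of 2 of complex II, 3 of 5 of complex III, 1 of 11 of complex IV and 6 of 12 of complex V. These are descriptions of letters, and no binding was measured.

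Subunits with and without the core had overlapping 12 h ratios. In the 20 tested subunits with a core the median 12 h ratio was -0.36, with a range from -1.94 in NDUFA9 to 0.32 in UQCRC1. In the 36 without a core it was -0.30, with a range from -1.39 in NDUFB11 to 0.28 in NDUFA7. These values are a description, with no test. Windows of 120 bases that end just before the start are shown for the first 3 of these genes and for SDHA and COX7C, to set a core with a low and a high ratio beside no core with a low ratio and one near 0. NRF1 cores are in capitals. That of NDUFA9 is chr12:4648994-4649113 (plus strand), that of SDHA chr5:218200-218319 (plus strand) and that of UQCRC1 chr3:48609647-48609766 (minus strand). That of NDUFB11 is chrX:47144703-47144822 (minus strand) and that of COX7C chr5:86617821-86617940 (plus strand).
NDUFA9: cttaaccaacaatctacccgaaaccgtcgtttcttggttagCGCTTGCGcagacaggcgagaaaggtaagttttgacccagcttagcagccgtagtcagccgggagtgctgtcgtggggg
SDHA: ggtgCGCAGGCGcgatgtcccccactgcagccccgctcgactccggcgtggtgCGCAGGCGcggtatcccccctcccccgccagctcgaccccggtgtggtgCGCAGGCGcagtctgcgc
UQCRC1: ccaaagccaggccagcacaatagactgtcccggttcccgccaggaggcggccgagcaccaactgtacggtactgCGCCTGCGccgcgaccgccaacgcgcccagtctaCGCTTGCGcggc
NDUFB11: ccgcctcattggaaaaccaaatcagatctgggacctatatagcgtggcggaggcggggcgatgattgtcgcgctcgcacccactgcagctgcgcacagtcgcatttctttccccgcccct
COX7C: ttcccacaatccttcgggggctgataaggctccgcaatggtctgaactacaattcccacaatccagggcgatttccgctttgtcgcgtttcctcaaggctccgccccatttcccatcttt
The core begins 79 bases before the start in NDUFA9, and 46 and 12 bases before it in UQCRC1. In the window shown, SDHA holds it at 116, 67 and 18 bases before the start, within a repeated stretch. A further SDHA core, outside that window, begins 165 bases before the start. NDUFB11 and COX7C hold none of the 3 sets of letters in the windows shown.

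The regulators themselves did not pass in limma. TFAM, which packages mitochondrial DNA and starts its transcription, was at 482, 353 and 476 without the drug and at 512, 245 and 198 with it. Its ratios were 0.09, -0.53 and -1.26, and the mean was -0.57 (SE 0.33, adjusted p = 0.980). NRF1 had ratios of -0.11, 0.83 and -0.13 and GABPA had -0.30, 1.32 and -0.20. The coactivators PPRC1 and PPARGC1A had 0.37, -0.20 and -1.17, and 0.30, -0.13 and -0.43, and the nuclear receptor ESRRA had 0.80, -0.52 and -0.05. TWNK, the helicase that unwinds mitochondrial DNA, had -0.33, -0.52 and -1.96. MYC, which also drives mitochondrial biogenesis, was at 1911, 2847 and 2123 without the drug and at 1212, 1974 and 500 with it, a mean ratio of -1.09 (SE 0.30, adjusted p = 0.427). In this list of 17 regulators the medians were -0.33, -0.16 and -0.67 at 3, 6 and 12 h, with 14 of 17 below 0 at 12 h.

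Other mitochondrial gene groups are set here beside all tested genes, of which 61.1 percent were below 0 at 12 h with a median of -0.18. In limma 0 members of any of these groups passed the treatment or the slope fit. At an unadjusted p under 0.05 the treatment fit held 3 of 11 stress genes, 2 of 17 regulators, 1 of 13 coenzyme Q and cytochrome c genes, 1 of 48 ribosomal proteins and 0 of the other lists, against 5.41 percent of all tested genes. Of 27 tested assembly factors 21 were below 0, with a median of -0.35. NDUFAF1, an assembly factor of complex I, had ratios of -0.46, -0.27 and -1.35, and COX11, a copper chaperone of complex IV, had -0.02, -0.50 and -1.39. NDUFAF3 and NDUFAF4, which act together on complex I, had 0.62, 0.54 and -0.97, and -0.02, 1.01 and -0.32. Of 48 tested mitochondrial ribosomal proteins 44 were below 0 at 12 h, with medians of 0.16, -0.07 and -0.56 at 3, 6 and 12 h. MRPS18B had a mean ratio of -0.76 (SE 0.31) and MRPS28 one of -0.75 (SE 0.34). In 11 of the 48 (22.9 percent, against 11.5 percent of all tested genes) the levels were ordered as the ribosomal RNA intensity of the arrays, whose part was not tested. That order requires a ratio above 0 at 3 h and below 0 at 6 and 12 h. This course was found in 21 of the 48 (43.8 percent), against 19.6 percent of all tested genes.

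Among the carriers and enzymes around the chain, COQ8A had the largest ratios. COQ8A, an atypical kinase-like protein needed for coenzyme Q synthesis, was at 439, 680 and 683 without the drug and at 403, 218 and 129 with it. The later 2 enzastaurin arrays were far below all others, with ratios of -1.64 and -2.41, and the mean of -1.39 (SE 0.40) did not pass in limma (adjusted p = 0.483). PDSS2, which makes the tail of coenzyme Q, had a mean of -0.66 (SE 0.35), and CYCS, cytochrome c itself, had ratios of -0.16, 0.17 and -0.12. In the list of 13 coenzyme Q and cytochrome c genes 10 were below 0 at 12 h, with a median of -0.60. Of 20 tricarboxylic acid cycle and pyruvate dehydrogenase genes 15 were below 0 at 12 h (median -0.32), with mean ratios of -0.63 for PDK1 and -0.42 for DLD. Of 15 carriers and porins 13 were below 0 (median -0.28), with mean ratios of -0.35 for SLC25A4 and 0.33 for SLC25A11. At 3 h the carriers had a median of 0.27, and 60 percent were above 0 then and below 0 at 12 h. The same held for 60.4 percent of the ribosomal proteins, 50 percent of the tricarboxylic acid list and 44.4 percent of the assembly factors. The share was 38.5 percent in the coenzyme Q list, 29.4 percent in regulators and 9.09 percent in stress genes. Over all tested genes it was 31.3 percent.

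Of 11 tested mitochondrial stress genes 4 were below 0 at 12 h, with a median of 0.11. At 3 and 6 h, 6 and 7 of the 11 were below 0, with medians of -0.01 and -0.04. DDIT3, which encodes CHOP, had ratios of 2.25, 1.11 and 1.95, and TRIB3, a CHOP target, had 0.95, 0.67 and 0.82. Both were above 0 at all 3 times and neither passed in limma (adjusted p = 0.132 and 0.693). ATF5, a factor of the mitochondrial unfolded protein response, had -0.27, -0.48 and 0.28.

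The 12 h medians depended on how the arrays were scaled. When the kept genes were given equal medians, the 12 h median was -0.15 for the subunits and 0.02 for all tested genes, and after quantile normalization it was -0.12 and -0.03. The subunits thus lay 0.17 below all tested genes under the authors' scaling and 0.08 below them after quantile normalization. Under these 2 alternatives 67.2 and 65.6 percent of subunits were below 0 at 12 h, against 48.9 and 52.0 percent of all tested genes. The 12 h median of complex IV turned to 0.06 and 0.14, while those of complexes I, II, III and V stayed below 0. At 3 h the subunit median was between 0.14 and 0.21 under the 4 scalings.

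**Figure D5:**
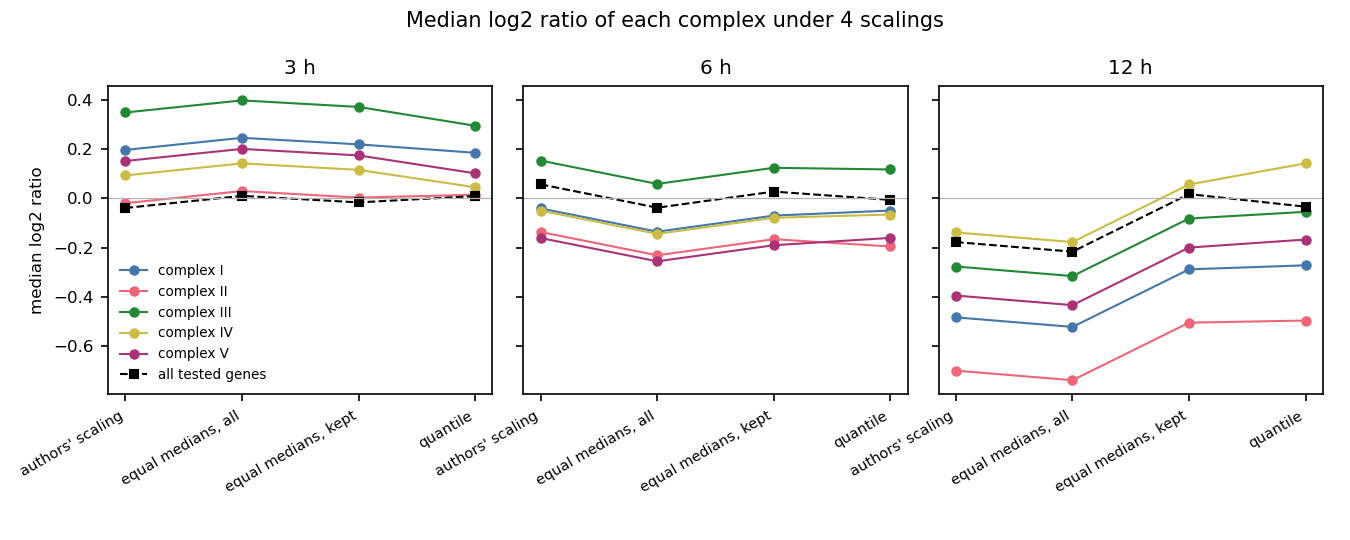
Median log2 ratio of each complex (coloured points) and of all tested genes (black squares) at each time under 4 scalings of the arrays: the authors' own, equal medians of all probe sets, equal medians of the kept genes and quantile normalization. At 12 h complex IV crosses 0 under the latter pair of scalings. Equal medians shift all complexes of a time by the same amount, so only quantile normalization could change their order. The order at 12 h is the same after it.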

How the data were processed

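Total RNA of MM.1S cells was hybridised to 6 Affymetrix arrays, 3 untreated and 3 with enzastaurin. The deposited table holds linear intensity values, made by the authors with MAS5 according to the submitters' processing notes. Neither its version nor its scaling target nor detection calls were given in the sources used here. The authors' scaling was kept, intensities were floored at 1 and log2 transformed, and the upper 50 percent of probe sets by mean log2 intensity was kept, with the brightest standing for each gene. The floor touched no tested gene.

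Enzastaurin minus untreated was estimated in limma 3.58.1 (R 4.3.3; lmFit and eBayes, prior variance trended on intensity) with time as a block, and its slope on log2 hours in a further fit. P-values were adjusted over all 6838 genes by the Benjamini-Hochberg method and called under 0.05. They reflect only the spread among these arrays, possibly technical, since the labels name no separate cultures. The SE is the moderated standard error. Single times have 1 array on each side and no test; there, genes at least 2-fold apart are counted. The number of arrays limits the precision. The fits were tested on simulated data.

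The members, gene lists, tests and alternatives were chosen with earlier results of these data known. Members were named when they were called, had the largest mean ratios of their complex (4 in complex I, 3 in the others), were among the 3 highest or lowest at a time, encoded SDH subunits, belonged to paralog groups or had probe sets that differed in sign. From the lists, the pair with the largest mean ratios and 10 regulators or other genes chosen by name were given. NDUFA1, NDUFA13, NDUFV1, COX5A, CYC1, UQCRC2, UQCR10, UQCRQ, ATP5F1B, NDUFAF3 and NDUFAF4 were named after their values were seen. Alternatives changed the scaling, floor, filter, probe set rule, variance prior, time block, ribosomal RNA covariate or arrays used. Mitochondrially encoded subunits were not analysed here.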

Additional observations from a re-analysis of the deposited data

Results flagged for a closer look

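The effect of enzastaurin differed along time in 2 of 64 subunits by a test of that difference, the slope of the log2 ratio per doubling of hours in limma, against 1.43 percent of all tested genes (0.921 percent downward). For ATP5F1D the slope was -1.41 (adjusted p = 0.0102), with ratios of 1.68 at 3 h and -1.13 at 12 h. For NDUFA9 the slope was also -1.41 (adjusted p = 0.0175), with 0.89 at 3 h and -1.94 at 12 h. Both calls were lost with equal medians of the kept genes and after quantile normalization, where 0 of all tested genes passed. In both, the 3 arrays with the higher ribosomal RNA intensity had the 3 highest levels, and the part of that intensity was not tested. Each treatment has 3 arrays, too few for a check of single arrays within a group.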

How the results depend on the processing

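In the treatment fit 4 of all tested genes passed. That count was 1 with equal medians of all probe sets, 1 after quantile normalization, 1 with no filter, 0 in the upper 10 percent of intensity (added after seeing the data), 0 with no intensity trend, 2 with no time block and 74 with the ribosomal RNA covariate. It ran from 0 to 247 when 1 pair of arrays was left out, 247 without the 3 h pair. The count of subunits was 0 under these settings except without the 3 h pair, where it was 2 (range 0 to 2). In the slope fit 98 genes passed, against 167 with equal medians of all probe sets, 0 with equal medians of the kept genes, 0 after quantile normalization, 151 with no filter and 20 in the upper 10 percent. The 2 subunits became 4 with equal medians of all probe sets, 0 with equal medians of the kept genes, 0 after quantile normalization and 0 in the upper 10 percent, where neither gene was among those tested. Across alternatives the slope ran from -1.45 to -1.32 for ATP5F1D and from -1.46 to -1.33 for NDUFA9. The median ratio of complex II moved from -0.33 to -0.73 with every probe set tested, since SDHC then counts 4 times. The causes of the other changes were not tested. Among 793 values of named subunits under alternatives, 4 gained a call, 4 lost one and 0 reversed one. Uncalled values changed sign 45 times and moved by over their SE 33 times. The slope could not be fitted with the ribosomal RNA covariate or without a pair of arrays. The fits pair the arrays by time point, and the labels give no other pairing.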
